A study of Mus musculus with 40 samples.

Results

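Immediate early transcription factors are genes that cells switch on within minutes of a stimulus, without new protein being made first. The 10 members described here were taken by name: Fos, Fosb, Fosl2, Jun, Junb, Jund, Egr1, Atf3, Ier2 and Klf6. All 10 were found among the 28467 genes of the bulk table and among the 32285 genes of the table of nuclei. They were followed in the kidney that remained, the right one, in C57BL/6 males aged 8 to 12 weeks, after removal of the left kidney (unilateral nephrectomy, UNx) or after a sham operation. Bulk RNA-seq of polyadenylated RNA from a cross-section of the kidney covered 6 sham and 6 UNx mice per time, taken 24, 48 or 72 h after the operation. RNA-seq of single nuclei, which reads RNA in nuclei sorted by a DNA stain, covered 2 sham and 2 UNx mice at 24 h. The labels carry no transgene or other treatment, and each time point has its own shams.

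Proteins of the FOS and JUN families join in pairs to form the factor AP-1, which binds DNA at short palindromic sites. JUN proteins can pair with each other or with FOS proteins, whereas FOS proteins need a JUN partner. EGR1 is a zinc finger factor that binds GC-rich sites, and ATF3 is a stress-induced relative of the JUN and FOS families. In the kidney, FOS, JUN, EGR1 and ATF3 are known to be induced soon after ischemia.

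Bulk libraries held 14.9 to 24.1 M estimated counts. The labels place all 24 h libraries in batch 1 and all 48 h and 72 h libraries in batch 2, so time and batch cannot be told apart for 24 h, and the sham and UNx libraries of a given time were in the same batch. At 48 h, UNx replicates 1 to 5 stood apart from the other batch 2 libraries, with 25.8% to 26.4% of counts from mitochondrially encoded genes, whereas replicate 6 had 15.2% and the 48 h shams 14.0% to 15.5%. These 5 libraries also stood apart on a profile score, which places a library between the later shams (low) and the 24 h shams (high) on processed pseudogenes. The score was 0.57 to 0.66 in replicates 1 to 5 and 0.0099 in replicate 6. The other batch 2 libraries reached at most 0.120, and the 24 h UNx libraries had 0.61 to 0.86. The cause of this separation was not tested. Results at 48 h are therefore given with the values of replicate 6. The table of nuclei held 5342 and 2641 nuclei from the sham mice and 5151 and 3366 from the UNx mice, with a median of 7581 to 9909 UMIs (unique molecules) per nucleus, and 18 barcodes occurred in 2 libraries. The first mouse of each group belongs to batch 3 and the second to batch 4. The deposited class names were checked against defining markers where a result turns on them. Aqp2, the water channel of principal cells, was highest in MPC of the 23 classes used, at 570 CPM against 461 in the class CPC. Other principal cell markers were higher in CPC. Fxyd4 had 382 CPM in MPC (rank 2) and 860 in CPC, and Scnn1g had 11.2 in MPC (rank 9) and 301 in CPC. Slc26a4, the pendrin exchanger of type B intercalated cells, was highest in ICB, at 6011 CPM of the class's UMIs. Slc12a1, the salt transporter of the thick ascending limb, was highest in MTAL, CTAL2 and CTAL1, in that order.

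The 10 members differed widely in level. CPM is a gene's count scaled to a common library total. Per kb of exon sequence, the mean in the 24 h shams was 27.2 CPM for Jund, 8.80 for Jun, 6.60 for Klf6, 4.47 for Junb, 2.82 for Ier2 and 1.77 for Egr1. It was 0.973 for Fosl2, 0.328 for Fos, 0.256 for Atf3 and 0.0286 for Fosb. Jund, which is known as the constitutive member of the JUN family, was thus the highest and the strongly inducible Fos and Fosb were near the bottom. The order of neighbours was not the same in the later shams. Klf6 was above Jun and Fosl2 above Egr1 at 48 h and 72 h, and at 72 h Ier2 was also above Junb and Atf3 above Fos. Fosb held 0 to 12 counts per library in all 36 libraries and failed the filter on low counts at every time point, so 9 of the 10 members were tested.

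Promoters are shown for Fos, the inducible prototype, and for the 3 members called in the bulk data whose RefSeq promoter holds a site that a related factor is known to bind. RefSeq promoters (GRCm38.p6) were matched for 8 of the 10 members, and the 250 bases before each start were searched on both strands. The motif TGACG, the core of the cAMP response element, was in 4 of the 8 (Fos, Fosb, Junb and Atf3) and in 17.8% of all 32851 promoters. The motif GCGNGGGCG, the EGR site, was in Fosl2 and Fosb and in 4.70% of all promoters. It overlaps the GC box GGGCGG in both, and the GC box was in 6 of the 8 and in 32.7% of all promoters. TATAAA was in Fos and in 12.4% of all promoters. The full element TGACGTCA, found in 1.55% of promoters, and the AP-1 site TGANTCA, found in 6.75%, had no match in the 8 members, which says only that these letters are not in this window. The last 150 bases before each start follow, 5′ to 3′ on the gene's strand, with capitals for TGACG or its reverse complement in the first 3 and for the EGR site in Fosl2. A match is a description and not a binding site. The RefSeq start of Atf3 lies 34706 bases and that of Fosl2 671 bases from the gene's outermost start in the GENCODE annotation, so other promoters of these genes are not shown.
Fos, chr12:85473740-85473889, plus strand: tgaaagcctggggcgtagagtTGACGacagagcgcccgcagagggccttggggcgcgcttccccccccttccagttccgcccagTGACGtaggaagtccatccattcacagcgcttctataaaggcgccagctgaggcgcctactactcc
Junb, chr8:84978749-84978898, minus strand: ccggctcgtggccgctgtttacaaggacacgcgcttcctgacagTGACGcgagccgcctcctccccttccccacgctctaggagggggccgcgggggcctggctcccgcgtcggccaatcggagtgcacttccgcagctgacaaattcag
Atf3, chr1:191183334-191183483, minus strand: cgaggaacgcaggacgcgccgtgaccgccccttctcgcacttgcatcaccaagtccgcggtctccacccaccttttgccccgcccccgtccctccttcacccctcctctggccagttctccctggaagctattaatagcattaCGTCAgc
Fosl2, chr5:32136322-32136471, plus strand: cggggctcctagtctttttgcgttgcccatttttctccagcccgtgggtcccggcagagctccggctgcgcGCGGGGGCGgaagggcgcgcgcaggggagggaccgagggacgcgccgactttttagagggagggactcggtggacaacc

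The first question was whether nephrectomy changed these genes in the remaining kidney as a whole. At 24 h 1 of the 9 tested members rose (Atf3), at 48 h Jund and Junb rose and Fosl2 fell, and at 72 h none passed the test, with 2 at an unadjusted p under 0.05. The test was edgeR's quasi-likelihood test within each time point, with a call at a Benjamini-Hochberg adjusted p under 0.05. Of all genes tested, it called 27.3% at 24 h (14.2% higher, 13.1% lower), 32.9% at 48 h (16.9% higher, 16% lower) and 1.71% at 72 h, so 1 of 9 members lay under the share of all genes and 3 of 9 close to it. The median log2 fold change of the 9 was 0.13 at 24 h, -0.04 at 48 h and -0.07 at 72 h, against 0.01, -0.04 and -0.0042 over all genes tested. In bulk tissue, fewer cells of a type and less RNA per cell cannot be told apart.

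**Figure D1:**
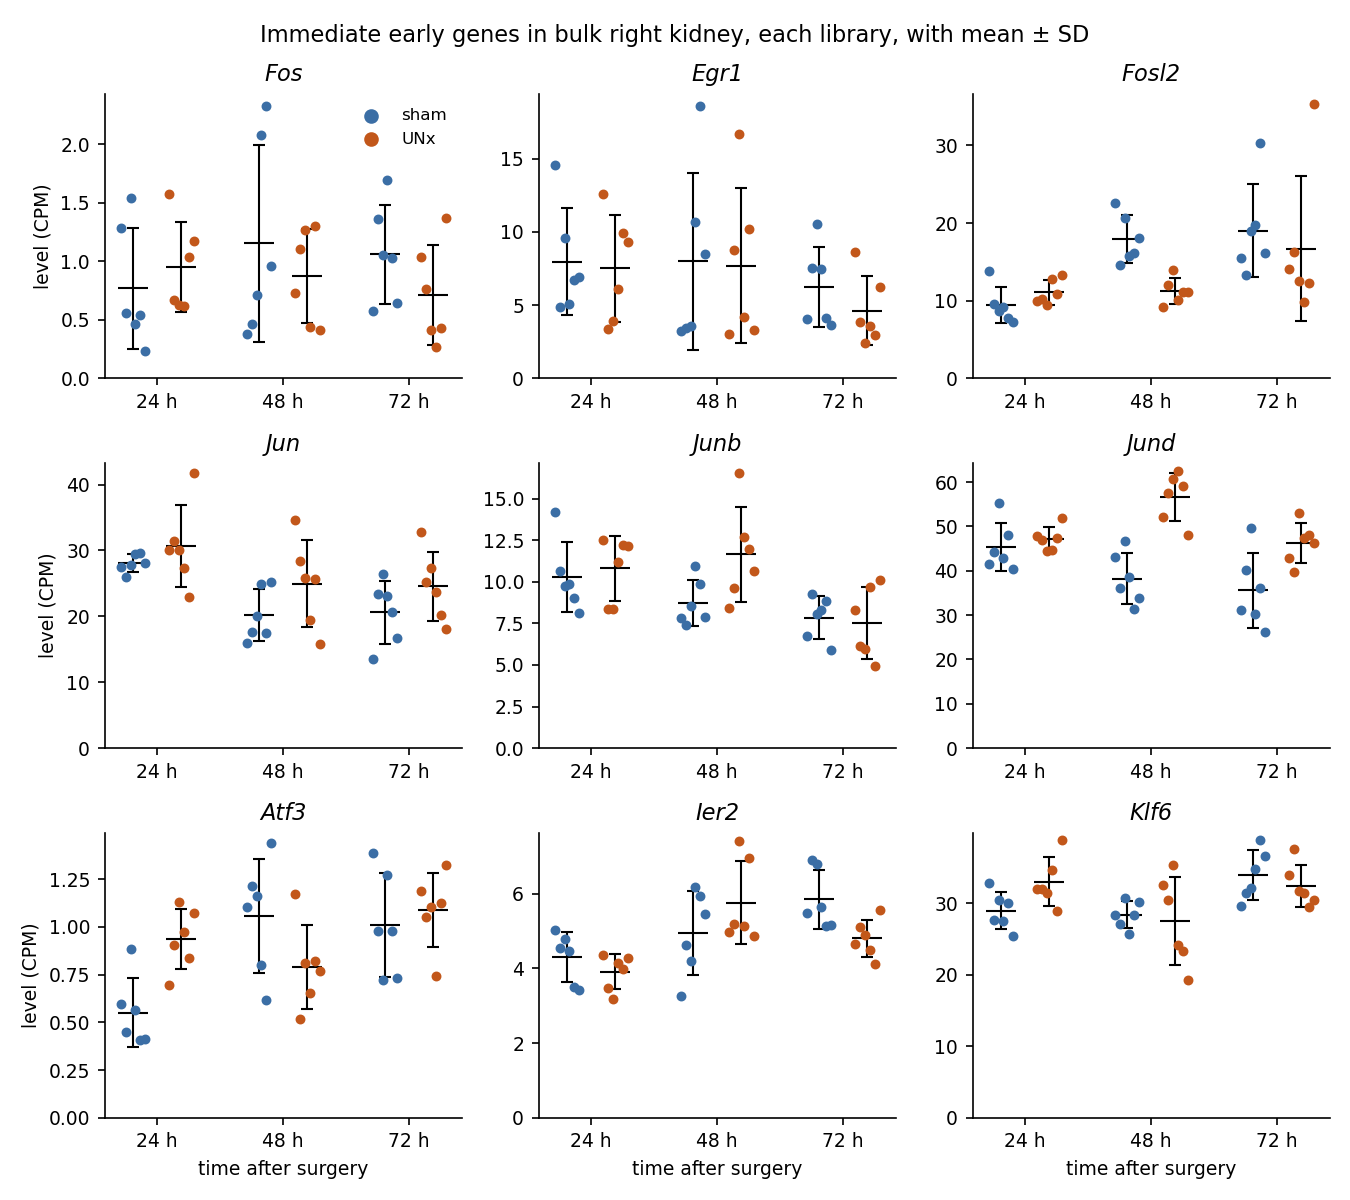
Level in CPM (vertical axes, starting at 0) of the 9 tested members in each bulk library, by time after surgery and group, with the group mean and SD as bars. At 48 h the 6 UNx libraries lie below all shams for Fosl2 and above all shams for Jund, and the points of Egr1 and Fos are spread widely in every group.

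Among FOS family members, Fosl2, which encodes FRA2, gave the clearest result. In the 48 h shams it ranged from 14.6 to 22.6 CPM with a median of 17.1, and in the 48 h UNx libraries from 9.23 to 14.0 CPM with a median of 11.1. The groups did not overlap, as was the case for 11% of all genes tested at that time. The Fosl2 mean fell, from 18.0 ± 3.11 to 11.3 ± 1.64 CPM (SD, n = 6 each). On the log2 scale the change was -0.67 (SE 0.122) and the edgeR adjusted p 0.00151. UNx replicate 6, which has the mitochondrial share of the shams, stood at 11.1 CPM, also below all 6 shams. With replicate 6 as the only UNx library the estimate was -0.69, with an adjusted p of 0.274, where the lone library is assumed to vary like the others. At 24 h Fosl2 was 9.42 ± 2.33 CPM in sham and 11.1 ± 1.58 in UNx, and at 72 h 19.0 ± 5.99 and 16.7 ± 9.35, and neither difference passed the test. The 24 h value depended on sham replicate 1, at 13.8 CPM. Without it Fosl2 was called higher, with a log2 fold change of 0.37 and an adjusted p of 0.0196. At 72 h UNx replicate 6 reached 35.3 CPM while the other UNx libraries lay between 9.84 and 16.3.

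In the nuclei the highest median level of Fosl2 over the 4 mice was in the class Uro, at 40.7 CPM, then in ATL at 34.6 and DTL3-ATL at 30.8. In the bulk libraries its deviation from the group mean went with the summed level of 3 principal cell markers, with Pearson's r 0.655 and Spearman's rho 0.457 over 36 libraries. It also went with 4 endothelial markers, with r 0.683 and rho 0.432, and against the proximal tubule markers, with r -0.515 and rho -0.523. None of these passed after adjustment over 135 relations of members with marker lists (permutation within groups, adjusted p 0.0508, 0.0508 and 0.0533 for r, and 0.187, 0.199 and 0.106 for rho). Without the 2 farthest libraries r was 0.547, 0.447 and -0.552. Within batch 1 r was 0.614, 0.748 and -0.365, and within batch 2 it was 0.665, 0.668 and -0.544. The library with 35.3 CPM of Fosl2 also had the highest principal, endothelial and mural sums, at 726, 349.9 and 256 CPM. Its sum of urothelial markers was 27.8 CPM, against 38.3 in the highest library, a 24 h UNx one. At 48 h the principal sum spanned 189 to 520 CPM in sham and 171 to 452 in UNx, and the endothelial sum 205 to 269 and 207 to 251, with no principal and no endothelial marker called. The 3 urothelial markers summed to 5.09 to 33.1 CPM in the 48 h shams and 1.01 to 15.5 in UNx, also with none called. Other marker lists held calls at 48 h. Proximal tubule markers had 2 of 6 higher and 1 lower (sums of 8415 to 9992 CPM in sham and 8790 to 11359 in UNx), mural markers 2 of 4 higher (96.1 to 156 and 128 to 236) and fibroblast markers 2 of 4 lower (117 to 207 and 60.6 to 202). Red blood cell markers had 2 of 5 lower (416 to 957 and 255 to 642) and thick limb markers 1 of 3 lower (4880 to 7452 and 3707 to 5503). Distal convoluted (1 of 3) and intercalated markers (1 of 4) were also lower, podocyte markers (1 of 3) higher, and immune markers had 1 of 4 tested in each direction. The part of these lists in the 48 h differences of Fosl2, Jund and Junb was not tested.

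Fos, the founding member of the family, was low and variable. It ranged from 0.236 to 1.54 CPM in the 24 h shams and from 0.615 to 1.57 in the 24 h UNx libraries, from 4 to 34 counts a library. At 48 h it spanned 0.381 to 2.33 CPM in sham and 0.410 to 1.30 in UNx, and at 72 h 0.573 to 1.69 and 0.265 to 1.37. Sham and UNx overlapped at each time. The log2 fold changes were 0.27 (SE 0.382), -0.39 (SE 0.464) and -0.55 (SE 0.377), with edgeR adjusted p from 0.490 to 0.635. With such errors, a change of the size seen for Fosl2 was not detectable for Fos.

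In the JUN family, Jund rose at 48 h. The 48 h shams lay between 31.5 and 46.6 CPM with a median of 37.3, and the UNx libraries between 48.1 and 62.4 with a median of 58.3. The mean went from 38.2 ± 5.71 to 56.7 ± 5.49 CPM (SD, n = 6 each), and the groups did not overlap. On the log2 scale Jund changed by 0.57 (SE 0.0974), with an edgeR adjusted p of 0.00109. UNx replicate 6 was the lowest of its group, at 48.1 CPM, and still above every sham. With that library alone the estimate was 0.33, with an adjusted p of 0.445. At 72 h Jund was 35.6 ± 8.41 CPM in sham and 46.2 ± 4.57 in UNx, with all 6 UNx libraries above the sham mean, and the log2 fold change of 0.38 had an adjusted p of 0.153. Sham replicate 3, at 49.6 CPM, decided that call, since without it the log2 fold change was 0.50 and the adjusted p 0.0445. The mitochondrial share moved with the groups at 48 h, and its part in the 3 calls was not tested beyond a covariate fit. With that share as a covariate the adjusted p was 0.458 for Jund, 0.375 for Fosl2 and 0.768 for Junb, and no gene of the table was called. At 24 h Jund was 45.4 ± 5.49 and 47.2 ± 2.71 CPM, a log2 fold change of 0.06.

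Junb, a JUN protein known to oppose JUN in growth control, was between 7.42 and 10.9 CPM in the 48 h shams and between 8.42 and 16.6 in UNx, with overlap. Its mean went from 8.75 ± 1.38 to 11.6 ± 2.85 CPM, which on the log2 scale is a rise of 0.42 (SE 0.152) with an edgeR adjusted p of 0.0486. That call ended when any of 8 of the 12 libraries was left out (sham replicates 1, 2, 3, 5 and 6, UNx replicates 3, 4 and 5), with adjusted p up to 0.108. UNx replicate 6 held 10.7 CPM, inside the range of the shams. At 24 h and 72 h the log2 fold changes of Junb were 0.06 and -0.06. Jun itself lay between 16.0 and 25.2 CPM in the 48 h shams and between 15.9 and 34.6 in UNx, which gave 0.30 on the log2 scale (SE 0.171) and an adjusted p of 0.186. UNx replicate 6, at 15.9 CPM, was its lowest UNx library, and without it Jun was called higher, with a log2 fold change of 0.43 and an adjusted p of 0.0369.

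Atf3, which is known as a stress-response member of the ATF family, was the only member called at 24 h. It ranged from 0.405 to 0.882 CPM in sham with a median of 0.507, and from 0.694 to 1.13 CPM in UNx with a median of 0.940. The ranges overlapped through sham replicate 3, and all 6 UNx libraries lay above the sham mean. The Atf3 mean rose, from 0.551 ± 0.180 to 0.936 ± 0.159 CPM (SD, n = 6 each). The log2 change was 0.75 (SE 0.224), with an edgeR adjusted p of 0.0226. These values rest on 6 to 27 counts a library, and the call ended without sham replicate 5 or 6 or UNx replicate 3 (adjusted p 0.0509, 0.0527 and 0.0550) and with no filter on low counts (0.0569). The mitochondrial share was 23.5% to 26.7% in the 24 h shams and 21.5% to 24.9% in UNx. With that share as a covariate the log2 fold change of Atf3 was 0.96 and the adjusted p 0.106. The profile score did not overlap between the 24 h groups, at 0.95 to 1.04 in sham and 0.61 to 0.86 in UNx. With that score as a covariate Atf3 was not called. At 48 h Atf3 was 1.06 ± 0.297 CPM in sham and 0.791 ± 0.219 in UNx, and at 72 h 1.01 ± 0.272 and 1.09 ± 0.194, with neither difference called.

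Egr1, a zinc finger factor induced through the MAP kinase pathway, did not pass the test at any time, and its libraries were spread more than nearly all genes. The 24 h shams lay between 4.89 and 14.6 CPM and the 24 h UNx libraries between 3.34 and 12.6. At 48 h the ranges were 3.26 to 18.6 and 3.00 to 16.7 CPM, and at 72 h 3.67 to 10.6 and 2.44 to 8.62. The coefficient of variation within groups was 44.1% to 75.6%. The log2 fold changes were -0.09 (SE 0.323), -0.04 (SE 0.499) and -0.43 (SE 0.335), with adjusted p of 0.859, 0.954 and 0.559. Leaving out single libraries turned the sign at 24 h and 48 h.

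Ier2, a small nuclear protein of the early growth response, and Klf6, a zinc finger factor known in tubular stress, did not pass the test at any time. Ier2 was 5.13 to 6.90 CPM in the 72 h shams and 4.13 to 5.57 in UNx, a log2 fold change of -0.28 (SE 0.107) with an adjusted p of 0.193 and all 6 UNx libraries under the sham mean. Klf6 was 29.0 ± 2.6 CPM in the 24 h shams and 33.0 ± 3.42 in UNx, which gave 0.19 on the log2 scale (SE 0.0755) and an adjusted p of 0.0801. It was called higher without sham replicate 1 (adjusted p 0.0359) or UNx replicate 5 (0.0484).

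**Figure D2:**
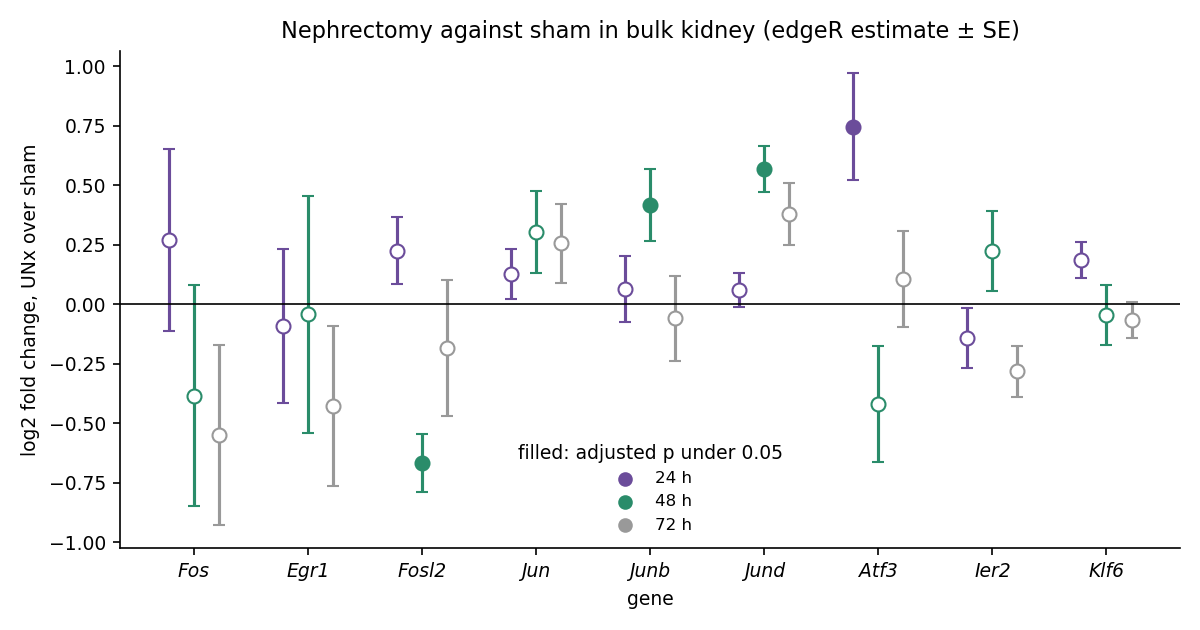
edgeR log2 fold change of UNx over sham (vertical axis) with its SE for the 9 tested members (horizontal axis) at 24, 48 and 72 h, with filled points for an adjusted p under 0.05. Atf3 at 24 h and Fosl2, Junb and Jund at 48 h are filled, and the bars of Fos and Egr1 are the longest.

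The next question was whether the effect of nephrectomy differed between times. In a fit over all 36 libraries the effect at 48 h minus that at 24 h passed for Jund (0.54, SE 0.155, adjusted p 0.00639), Fosl2 (-0.86, SE 0.307, adjusted p 0.0256) and Atf3 (-1.14, SE 0.313, adjusted p 0.00439). These were 3 of 9 tested members, against 37% of all genes tested, and 24 h and batch cannot be told apart here. With the profile score as a covariate none of the 3 was called. The 48 h effect includes the UNx libraries that stood apart on that score. Their part in these differences was not tested beyond that covariate fit. Between 72 h and 48 h, and between 72 h and 24 h, edgeR called 0 of 9 members, and 2 in each had an unadjusted p under 0.05, against 14.6% and 4.15% of all genes called. For Ier2 the difference between 72 h and 48 h was -0.52 with an adjusted p of 0.0651, and 0.0470 in DESeq2, its single member call there. Shams of 72 h and 48 h gave 0 calls in edgeR, with Jund at an unadjusted p of 0.0259, against 0% of all genes.

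Other genes of the pathway were called in both directions, and the lists were chosen with earlier results of these data known. Their counts are read against the 27.3% of all genes called at 24 h and the 32.9% called at 48 h. Taken over both directions, the counts of the upstream list, of other immediate early genes and of feedback inhibitors at 24 h lay near or under those shares. Their calls are therefore given as values of single genes. The upstream list, which holds kinases and factors that drive immediate early promoters, had 5 of 22 genes higher and 2 lower at 24 h. Map2k2 and Map2k1, which encode the kinases that activate ERK, rose from 52.0 ± 4.27 to 68.3 ± 5.59 CPM and from 24.3 ± 1.67 to 29.9 ± 1.41 CPM. Mrtfb, a coactivator of SRF, and Elk4, an ETS factor that binds with SRF, fell, with log2 fold changes of -0.30 and -0.20. At 48 h the list had 4 higher and 3 lower, with Hras (log2 fold change 0.43) and Srf, the factor that binds serum response elements (from 14.5 ± 1.31 to 23.9 ± 5.32 CPM), leading the rises. Rps6ka3 and Elk4 led the falls, at -0.29 and -0.30. No gene of this list was called at 72 h, where 5 of 22 had an unadjusted p under 0.05.

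Other immediate early genes showed 4 of 31 tested higher and 5 lower at 24 h. Btg2, an antiproliferative gene, rose from 7.10 ± 0.744 to 10.1 ± 0.807 CPM, and Ier3 had a log2 fold change of 0.66. Sik1, a salt-inducible kinase, fell from 43.9 ± 2.82 to 36.2 ± 2.69 CPM, and Ccn2, a matricellular growth factor, fell by 0.57 on the log2 scale. At 48 h 3 were higher and 4 lower. Errfi1, a brake on the EGF receptor, and Ier5l rose, with log2 fold changes of 0.38 and 0.69, while Btg2 and Ccn2 fell by 0.49 and 0.86 on that scale. Btg2 was thus higher at 24 h and lower at 48 h. At 72 h edgeR called 0 of 31, and 4 had an unadjusted p under 0.05.

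Of 15 tested feedback inhibitors, which shut the response down, 1 was called higher and 4 lower at 24 h. Of all genes tested then, 14.2% were called higher and 13.1% lower. Dusp1, a MAP kinase phosphatase, fell from 22.4 ± 3.26 to 16.8 ± 2.00 CPM with no overlap, as for 10.4% of all genes tested at that time. Spred2 had a log2 fold change of -0.26, while Dusp6, the ERK phosphatase, rose with 0.37. At 48 h Zfp36l1 and Zfp36, which destabilise AU-rich mRNAs, rose, with log2 fold changes of 0.45 and 0.58, and Spred1 fell, with -0.55. Of 12 tested other AP-1 and bZIP genes, Mafk at 24 h and Atf2 at 48 h were lower and no gene was higher. Of 8 heat shock genes 6 rose at 24 h, where 14.2% of all genes were called higher, among them Dnajb1 (from 19.2 ± 2.12 to 35.0 ± 11.3 CPM) and Hsph1, with a log2 fold change of 0.56, and at 48 h Bag3 alone, from 25.2 ± 5.27 to 38.7 ± 9.35 CPM. Of the tubular injury genes, Krt8 rose at 24 h, with a log2 fold change of 0.22, and Spp1 fell at 48 h, with -0.55. At 72 h none of these 4 lists held a called gene in edgeR, with 4 feedback, 1 AP-1 or bZIP, 2 heat shock and 0 injury genes at an unadjusted p under 0.05.

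Within the groups, several members went up and down together from mouse to mouse. The deviations of Egr1 from its group means left a gap, with 16 libraries at 0.37 or more above the mean and 20 at 0.11 or more below it on the log2 scale, and none between. High libraries numbered 2 or 3 of 6 in every group, and since the deviations are taken from each group's own mean, that balance says nothing about surgery. Fos was above its group mean in 16 of the 16 libraries with high Egr1 and below it in 18 of the 20 others, a mean difference of 1.14 on the log2 scale. Ier2 and Junb were above it in 13 of 16 and below it in 15 of 20, with mean differences of 0.30 and 0.32. The cut was placed at the widest gap, and whether the libraries form separate clusters was not tested. Pooled over the 36 libraries, Pearson's r with Egr1 was 0.804 for Fos, 0.743 for Ier2 and 0.658 for Junb. Spearman's rho was 0.766, 0.735 and 0.654 (permutation within groups, adjusted p at most 0.000648 for r and rho). These pooled values include the difference between high and low libraries. Within the high and the low libraries Pearson's r with Egr1 was 0.349 and 0.0710 for Fos, 0.444 and 0.276 for Ier2 and 0.487 and 0.294 for Junb, and Spearman's rho lay between 0.0361 and 0.438. None of these 6 relations within a side passed (permutation test, adjusted p at least 0.253), with 16 or 20 libraries a side and a narrowed range of Egr1. Without the 2 farthest libraries r lay between 0.0802 and 0.471.

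**Figure D3:**
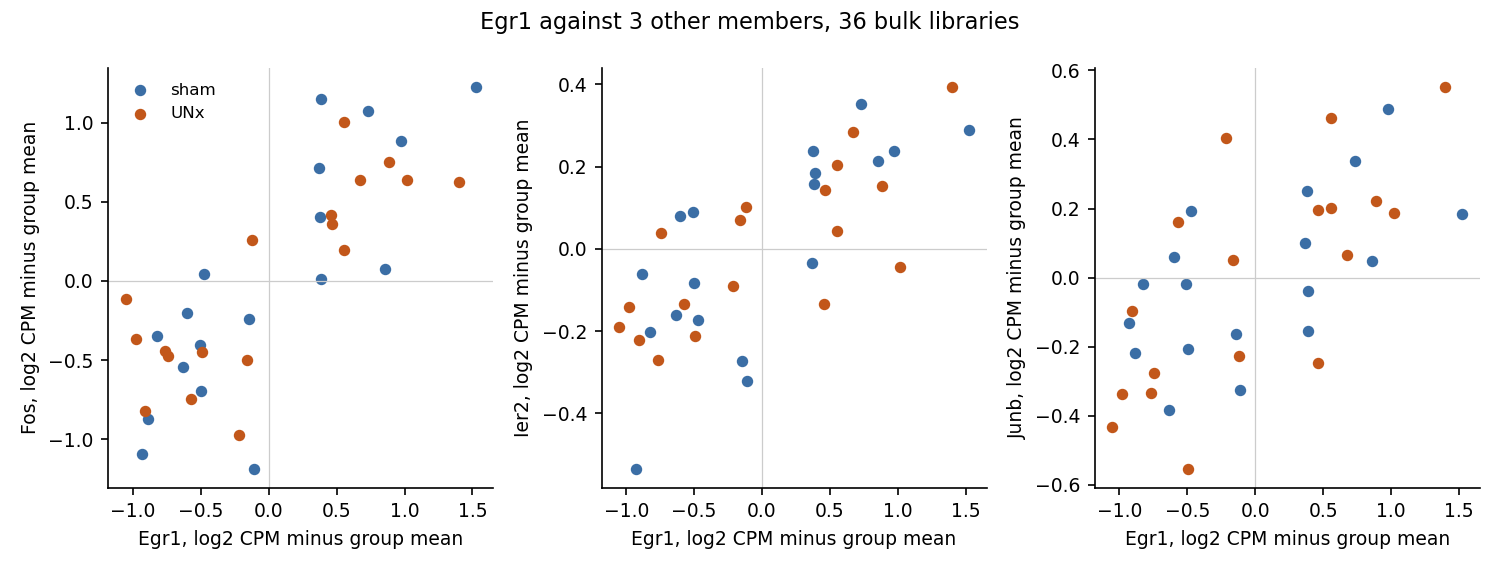
Log2 CPM minus the mean of the library's group for Egr1 (horizontal axes) against Fos, Ier2 and Junb (vertical axes) in 36 bulk libraries, 1 point each. Along the Egr1 axis a gap parts low points, from -1.05 to -0.11, from high points, from 0.37 to 1.52, each with sham and UNx libraries.

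Among pairs without Egr1, 3 passed with both coefficients, out of 36 pairs of members tested in all. Ier2 and Fos had Pearson's r 0.746 (permutation within groups, p 2e-05, adjusted 0.00036) and Spearman's rho 0.727 (p 3e-05, adjusted 0.00036), with r 0.720 without the 2 farthest libraries, 0.765 within batch 1 and 0.739 within batch 2. Junb and Ier2 had r 0.622 (p 9e-05, adjusted 0.000648) and rho 0.634 (p 8e-05, adjusted 0.000648), with r 0.562 without the 2 farthest, and 0.848 and 0.540 within the batches. Junb and Fos had r 0.540 (p 0.00149, adjusted 0.00894) and rho 0.531 (p 0.00183, adjusted 0.0110), with 0.521, 0.689 and 0.479. Fos, Ier2 and Junb all differed between libraries with high and low Egr1, so these pooled values include that difference too. The 3 pairs were not tested within the high or the low libraries. Libraries share depth and tissue content across genes, so these values describe the libraries. Among the 9 members, the standard deviation of log2 CPM within groups was largest for Egr1 (0.795) and Fos (0.737) and smallest for Klf6 (0.183) and Jund (0.197). The median was 0.156 over 12135 genes that averaged 1 log2 CPM or more. Fos lay under that level, so its value is set against genes with more counts. The 5 other genes most like the mean of the 9 members over 36 libraries, of 12128 that averaged 1 log2 CPM or more, were Wipf1 (r 0.761), Tcf19 (0.760), Chpf (0.730), Hells (0.730) and Cdt1 (0.690).

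The nuclei were used to ask in which cell classes the members differed 24 h after nephrectomy. Summed over all nuclei, Egr1 stood at 2.15 and 2.82 CPM of UMIs in the sham mice and at 6.23 and 5.53 in the UNx mice. The UNx level was 2.90 times the sham level in batch 3 (exact 95% interval 2.30 to 3.68) and 1.95 times in batch 4 (1.53 to 2.50), where intervals cover counting error only. The log2 fold change was 1.30 (SE 0.336, unadjusted p 0.0167, edgeR adjusted p 1.00), and 1.33 with the batch as a block (adjusted p 0.0615, where 1.04% of genes were called). The unblocked test called 0 of 9 tested members and 0% of 19975 genes, with Egr1 the single member at an unadjusted p under 0.05. Of the list of other immediate early genes, Nr4a3 (log2 fold change 2.02, unadjusted p 0.0291) and Nr4a1 (0.91, unadjusted p 0.0442) were also under 0.05. No gene of that list was under it with a lower level. In simulated counts this test recovered 0% of genes changed by 1 on the log2 scale, so its lack of calls cannot show a lack of change. In the bulk libraries of the same time, from other mice, the log2 fold change of Egr1 was -0.09. The other tested members differed by less, between 0.00 for Jun and 0.24 for Atf3 on the log2 scale, and Fosb had 0 to 13 UMIs a mouse and was not tested.

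By class, Egr1 was higher in both UNx mice than in both shams in MPC, in CTAL1, CTAL2 and MTAL, in DTL1, DTL2 and DTL3-ATL, and in EC2, and lower in both in ICB. In MPC, the class highest in Aqp2, Egr1 had 2 and 7 UMIs in the sham mice and 119 and 27 in the UNx mice, or 1.64 and 3.67 against 73.6 and 16.6 CPM. The ratio was 44.9 in batch 3 (interval 12.2 to 375) and 4.52 in batch 4 (1.92 to 12.3). In CTAL1 the levels were 2.37 and 1.12 against 15.1 and 18.6 CPM, from 3, 1, 23 and 17 UMIs, and the ratios 6.37 (1.93 to 33.2) and 16.6 (2.61 to 696). In CTAL2 they were 0.508 and 2.79 against 19.3 and 9.03, with ratios of 38.0 (6.52 to 1533) and 3.24 (0.890 to 17.7). In MTAL they were 1.75 and 2.16 against 5.87 and 6.62. The other classes held few UMIs and were not tested: in DTL1 0 and 0 in sham against 14 and 2 in UNx, or 41.6 and 9.35 CPM, in DTL2 0 and 0 against 2 and 1, in DTL3-ATL 0 and 0 against 2 and 2, and in EC2 4 and 0 against 8 and 3. In ICB they were 73.6 and 26.0 in sham against 2.14 and 3.27 in UNx, from 14, 18, 1 and 2 UMIs, so that sham was 34.3 times (5.22 to 1452) and 7.93 times (1.90 to 70.5) the UNx level. In the proximal classes PTS1, PTS2 and PTS3, Egr1 was between 0 and 3.91 CPM in every mouse.

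**Figure D4:**
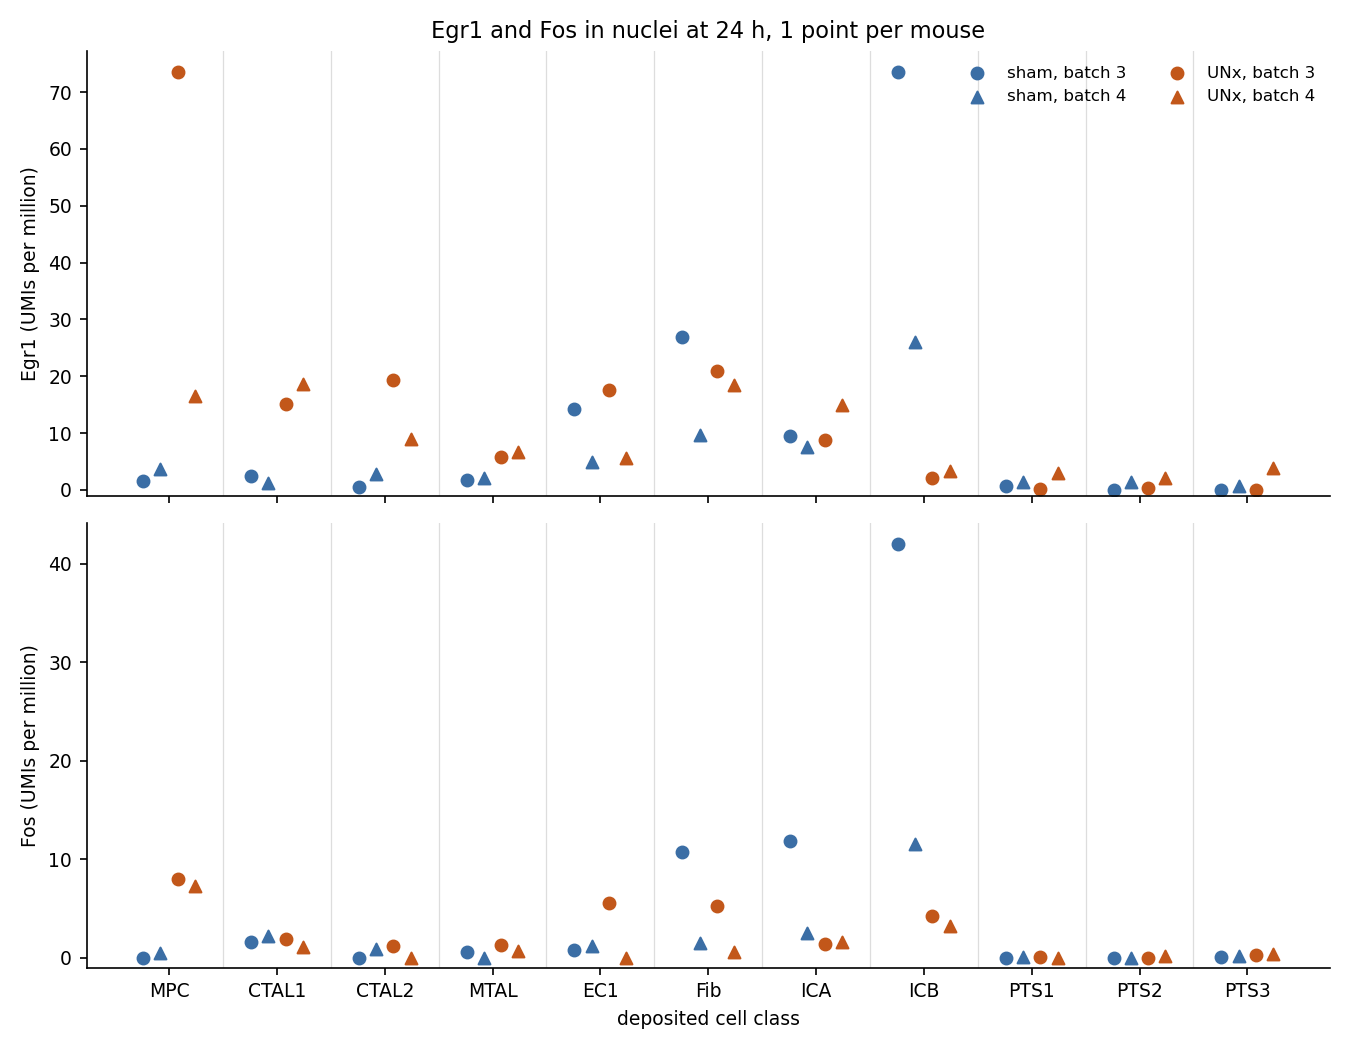
Level of Egr1 (top) and Fos (bottom) in UMIs scaled to CPM within the class (vertical axes) in 11 deposited cell classes, 1 point per mouse, with circles for batch 3 and triangles for batch 4. Both UNx mice lie above both shams in MPC for the 2 genes, and both shams lie above both UNx mice in ICB. Fos in ICB rests on 8 and 8 UMIs in sham and 2 and 2 in UNx. Its sham level was 9.81 times the UNx level in batch 3 (interval 1.96 to 94.8) and 3.53 times in batch 4 (0.704 to 34.1).

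With 2 mice a group and no block, edgeR called none of these, and 0 of 219721 pairs of gene and class in all. The smallest unadjusted p of a member was 0.00686, for Egr1 in CTAL1. The replicate number marks the labelled batch, and sham and UNx mice of a batch deviated together, so the fit with the batch as a block is given beside it. With 2 mice a group, that fit has little left to measure a gene's own spread, and its p rests largely on the spread of other genes. The blocked fit called 4 pairs of member and class, against 0.726% of all pairs of gene and class. These were 2 of 8 tested members in MPC, 1 of 5 in CTAL1 and 1 of 5 in ICB, with none called in the other classes. Egr1 was higher in MPC (log2 fold change 3.68, adjusted p 8.47e-05, where 0.382% of genes were called) and CTAL1 (3.14, adjusted p 0.0450, 0.603%) and lower in ICB (-3.85, adjusted p 0.00180, 0.632%). Fos was higher in MPC (4.38, adjusted p 0.0431), from 0 and 1 UMIs in sham to 13 and 12 in UNx. Each of these 4 pairs passed the filter on low counts only through the group where the gene was high. The calls therefore restate that difference and are not separate support for it. Egr1 in CTAL2 had an adjusted p of 0.129 in that fit, which called 0.0431% of genes there. The unblocked estimate for Egr1 in MPC was 4.05, and it was 2.66 without the first UNx mouse, 4.77 without the second and 4.75 without the second sham mouse. The effect on Egr1 in MPC minus that in ICB of the same mice was 7.55 (SE 1.11, unadjusted p 0.000208), and in CTAL1 minus ICB 7.28 (SE 0.974, unadjusted p 0.000117). Against PTS1 in place of ICB the differences were 3.71 (unadjusted p 0.182) for MPC and 3.19 (unadjusted p 0.125) for CTAL1. None of the 4 passed over all genes (edgeR adjusted p 1.00), and ICB was compared because Egr1 went the other way there, so its contrasts restate that observation.

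The share of nuclei with an Egr1 UMI followed the levels. In MPC it was 1.30% of 154 and 3.45% of 145 nuclei in sham and 26.3% of 198 and 8.28% of 157 in UNx, with exact intervals for UNx of 20.3% to 33.0% and 4.48% to 13.7%. No MPC nucleus held more than 7 Egr1 UMIs. In ICB 9 of 25 and 10 of 45 sham nuclei had a UMI, against 1 of 52 and 2 of 39 UNx nuclei. In PTS1, a class in which Egr1 is low, the shares were 0.521% and 1.86% in sham and 0.130% and 2.33% in UNx, at median depths of 8358 to 12414 UMIs, against 7534 to 9277 in MPC. After each nucleus was thinned to 1500 UMIs, the MPC shares were 0.649% and 1.38% in sham and 7.07% and 3.82% in UNx. The ICB shares were then 20% and 2.22% in sham and 0% and 0% in UNx, so that in batch 4 the difference rested on 1 of 45 nuclei, with a median depth of 11680 UMIs in that sham mouse and 9572 in its UNx mouse. Fos in MPC had UMIs in 13 nuclei of the first UNx mouse and in 3 of the second, 1 of which held 6 of the 12 UMIs, and no MPC nucleus kept a Fos UMI after thinning. Outside MPC, all other nuclei together had 1.83 times (1.42 to 2.37) and 1.80 times (1.40 to 2.34) as much Egr1 in UNx as in sham.

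The other members differed less between the groups in these classes, and several differed between batches. Junb in MPC was 27.9 and 12.0 CPM in sham and 70.5 and 19.6 in UNx, higher in each batch (block log2 fold change 1.12, adjusted p 0.181). Ier2 in MPC was 7.38 and 8.38 against 37.7 and 6.13, higher in batch 3 only. Jun was highest in ICB and ICA, at median levels of 72.6 and 54.0 CPM, and in ICA the batch 3 mice had 155 in sham and 70.4 in UNx while the batch 4 mice had 37.6 and 23.3. Klf6 was highest in PEC, with 17.8 and 43.9 in sham and 117 and 87.0 in UNx, from 4 and 6 against 26 and 15 UMIs (unadjusted p 0.0240, edgeR adjusted p 0.999). Jund was between 14.5 and 31.7 CPM in MTAL and the 3 proximal classes of every mouse. Beyond the members, Ier3 in ICB was 89.4 and 47.6 in sham and 30.0 and 9.82 in UNx, the single other gene of the fixed lists that the blocked fit called in MPC, CTAL1, CTAL2 or ICB (adjusted p 0.0363). Elsewhere that fit called other immediate early genes in EC1 (1 of 21 higher), PTS1 (1 of 25 lower), PTS2 (1 of 23 lower) and PTS3 (2 of 27 lower). Of the tubular injury genes it called 1 lower in each of DTL3-ATL, ICA and PTS1. Over all pairs of gene and class it called 0.726%.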

How the data were processed

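Bulk RNA-seq covered 36 libraries, from 6 sham and 6 UNx mice at each time. The deposited bulk values are estimated counts per gene that the authors made with Salmon 1.5.0 on GRCm39 (with FastQC 0.11.8 and R 4.10 also named), per the submitters' processing notes, and 34.1% are not whole numbers. The deposited nuclei values are estimated counts from alevin, with mm10 and Seurat named in the same notes, and 13.9% of those above 0 are not whole. No further normalization is visible in the values. No file gives further filters, and how multi-mapped reads were shared is not given in the sources used here. The deposited nuclei start at 1755 UMIs, so nuclei were filtered before deposit, and no doublets were called here.

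Counts were rounded, in nuclei after summing per mouse and class, and tested with edgeR 4.0.16 in R 4.3.3 (TMM factors, filterByExpr, quasi-likelihood test, Benjamini-Hochberg adjusted p under 0.05 over all genes tested). CPM were scaled by TMM within each time. DESeq2 1.42.0 was an alternative. Scripts were tested on simulated counts with known changes. Of genes changed by 0.5 on the log2 scale, the bulk tests recovered 60% at 24 h, 39.5% at 48 h and 61% at 72 h. For a change of 1 these were 90.5%, 85.5% and 84.5%. The unblocked test of summed nuclei recovered 0% at either size. Classes are those of the authors' annotation in its form of 30, and the 23 with at least 10 nuclei in each mouse were used. Correlations used log2 CPM with a prior count of 2 and group means removed, and 100000 permutations within groups. The genes named from other lists in bulk are up to 2 called genes per direction and time with the lowest p. In the summed nuclei, genes of the other immediate early list are named at an unadjusted p under 0.05. The 5 genes most like the members passed over predicted genes. All members and lists were chosen with earlier results of these data known. The replicates are labelled as separate mice. In the nuclei the replicate number marks the labelled batch, and the difference between mouse 1 and mouse 2 correlated between sham and UNx over genes (r 0.806), so the fit with the batch as a block is given where it changes a call. No 2 libraries of a group agreed within counting noise (lowest chi-square per gene 5.33). A profile score, the place of a library between the later shams (0) and the 24 h shams (1) on 180 processed pseudogenes, served as a covariate. Comparing classes within mice, and members with marker lists, was added after seeing the data. Intervals are exact and cover counting error only.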

Additional observations from a re-analysis of the deposited data

Results flagged for a closer look

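Of 60 groups of 6 libraries, 3 held a library far from the others, where chance flags about 1 in 20 groups. Fosb stood at 0.661 CPM in 24 h sham replicate 3, Fosl2 at 13.8 CPM in 24 h sham replicate 1, and Fosl2 at 35.3 CPM in 72 h UNx replicate 6. That last library also had the highest principal, endothelial and mural marker sums, and their part in its Fosl2 level was not tested.

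The effect of nephrectomy differed between 48 h and 24 h, by edgeR's test of the difference, for Fosl2 (-0.86 on the log2 scale), Jund (0.54) and Atf3 (-1.14). Time and batch cannot be told apart for these. None of them was called with the profile score as a covariate. The 48 h effect includes the UNx libraries that stood apart on that score, and their part was not tested beyond that fit.

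The effect on Egr1 in the nuclei was larger in MPC than in ICB of the same mice by 7.55 on the log2 scale, and larger in CTAL1 than in ICB by 7.28. The unadjusted p was 0.000208 and 0.000117 and the edgeR adjusted p 1.00 over all genes. ICB was compared because Egr1 went the other way there. Against PTS1 the differences were 3.71 (unadjusted p 0.182) and 3.19 (unadjusted p 0.125).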

How the results depend on the processing

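Of the alternatives to single-gene values, 683 kept their direction and side of the threshold, 27 lost a call, 10 gained one and 38 changed sign. At 24 h the 1 called member became 0 with no filter on low counts, 0 with the mitochondrial share as a covariate and 0 with the profile score as one, where the genes called fell from 3852 to 609 and 79. Leaving out single libraries gave 0 to 3 at 24 h (3 without sham replicate 1) and 2 to 4 at 48 h. At 48 h the 3 called members became 0 with either covariate and 0 with UNx replicates 1 to 5 left out, as did all 4696 called genes. At 72 h leaving out libraries gave 0 to 1 in place of 0. For 48 h minus 24 h the 3 calls became 0 with the profile score. For 72 h minus 48 h DESeq2 called 1 in place of 0. In the nuclei by class the replicate block called 4 in place of 0. The cause of these changes was not tested.

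Signs turned with the mitochondrial share for Fos (-0.083) and Junb (-0.046) at 24 h, Jun (-0.34) and Ier2 (-0.075) at 48 h and Fosl2 (0.078) at 72 h. They turned with the profile score for Egr1 (0.16) at 24 h, Jun (-0.26) at 48 h, Fosl2 (0.12) and Junb (0.047) at 72 h, Jun (-0.86) and Egr1 (-0.51) for 48 h minus 24 h, Jun (0.49) and Klf6 (0.39) for 72 h minus 48 h, and Jun (-0.37) for 72 h minus 24 h. With UNx replicates 1 to 5 left out at 48 h, Jun was -0.34 and Ier2 -0.015. Jun in the summed nuclei was -0.0087 with the replicate block. Leaving out single libraries moved Egr1 from -0.30 to 0.18 at 24 h and from -0.44 to 0.40 at 48 h, Klf6 from -0.13 to 0.062 at 48 h and Junb from -0.17 to 0.039 at 72 h. In the summed nuclei it moved Jun from -0.19 to 0.18, Junb from -0.20 to 0.49, Jund from -0.23 to 0.44, Atf3 from -0.31 to 1.28, Ier2 from -0.21 to 0.41 and Klf6 from -0.24 to 0.49. None of these values was called.

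Bulk replicate numbers did not pair the mice (same-number correlations from -0.297 to 0.140, with 0, 0 and 1 of 6 libraries closest to their own number), and with the replicate block the members called were 1, 3 and 0. The block took the genes called at 72 h from 249 to 116. Depth limits Fos and Atf3 in bulk (4 to 49 and 6 to 30 counts) and most members in ICB.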
